A study of Mus musculus with 32 samples.

Results

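The EGF receptor family and its ligands were followed in mouse lung organoid co-cultures. The genes are 3 receptors (Egfr, Erbb2 and Erbb3), 5 ligands (Areg, Ereg, Hbegf, Tgfa and Nrg1) and 1 inhibitor (Errfi1). They were chosen by name, as the rows of the count table that carry these symbols, and all 9 were found among 11818 genes. Earlier results of these data were known when the genes were chosen, so that counts of called genes are a description. Of the ligands and receptors of the family outside this set, the table held Btc (betacellulin), while Egf, Epgn, Nrg2, Nrg3, Nrg4 and Erbb4 were not among its rows. All 9 genes passed the filter on low counts in every comparison.

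The receptors of this family are tyrosine kinases that work in pairs. EGFR binds amphiregulin (Areg), epiregulin (Ereg), heparin-binding EGF-like growth factor (Hbegf) and transforming growth factor alpha (Tgfa), ERBB3 binds neuregulin 1 (Nrg1) and has little kinase activity of its own, and ERBB2 has no known ligand and serves as the partner of the others. The ligands are made as membrane proteins that proteases release, and the active receptor signals through RAS, ERK and PI3K, which in turn raises immediate early genes and feedback inhibitors, among them Errfi1 (also known as Mig6), which binds the receptor's kinase domain. In the lung this family is known for its part in the growth and repair of the epithelium.

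Cultures joined 300000 freshly isolated primary lung cells that were CD45-/CD31-/Epcam+, from untreated C57BL/6J mice aged 8 to 14 weeks, with as many CCL206 cells, a mouse lung fibroblast line that had been treated with mitomycin C (10 µg/mL) to stop it from dividing. After 72 h with vehicle, extracellular vesicles (EVs, 1000000000 particles/mL), soluble factors (SFs, 30 µg/mL) or osteoglycin (OGN, human recombinant protein, 10 µg/mL), the cells were separated again with Epcam (CD326) microbeads, and RNA of both fractions was sequenced. EVs and SFs came from the medium of MRC5, a human lung fibroblast line. Each of 4 mice gave cells to all 4 cultures, so that 2 fractions under 4 treatments gave 8 groups of 4 libraries. The CCL206 fraction of every culture is the same cell line, and its libraries therefore differ by culture and by the mouse whose epithelial cells shared that culture. The medium of all groups, vehicle included, held EGF, fetal bovine serum and bovine pituitary extract, so that no group measured these genes without added receptor ligand.

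Library totals ran from 1805914 to 17675454 counts (median 5901652). Levels are given as CPM, the counts of a gene scaled to the TMM-adjusted total of its library over all 32 libraries, which compares a gene between libraries and takes no account of gene length. The fractions were not pure: relative to the Epcam fraction of the same culture, the vehicle CCL206 fraction held 3.97% ± 1.14 (SD, n = 4) of the Epcam level, 10.3% ± 4.25 of the Cdh1 level and 22.7% ± 8.28 of the median gene of a 10-gene list of alveolar type 2 (AT2) cells. In turn, the Epcam fraction held 21.5% ± 4.35 of the median gene of a fibroblast list, of which 9 of 10 genes were in the table. Of 4 endothelial markers (Pecam1, Cdh5, Kdr, Tek) none was in the table, and of 6 macrophage markers Cd68 and Lyz2 were, the latter also a gene of AT2 cells. In bulk RNA a smaller number of cells of a type and less RNA per cell cannot be told apart.

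Promoter windows, the 250 bases before an annotated start, were on hand for 5 of the 9 genes in 6 windows (RefSeq, GRCm38.p6). Those of Errfi1, Areg and Egfr are shown because Errfi1 was the one of the 9 that fell most with OGN, Areg the ligand that differed most between the fractions, and Egfr a receptor that fell with EVs. The windows are chr4:150854820-150855069, before the inner of 2 annotated Errfi1 starts, chr5:91139349-91139598 and chr11:16751953-16752202, each on the plus strand and written 5′ to 3′. Capitals mark TGACGTCA, the palindromic letters known as the cAMP response element, and TATAAA, the TATA box letters.
Errfi1: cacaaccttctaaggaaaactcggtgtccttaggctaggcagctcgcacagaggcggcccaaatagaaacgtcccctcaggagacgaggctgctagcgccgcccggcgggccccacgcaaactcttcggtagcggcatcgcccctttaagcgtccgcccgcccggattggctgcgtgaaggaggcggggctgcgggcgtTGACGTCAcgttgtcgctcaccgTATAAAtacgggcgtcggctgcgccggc
Areg: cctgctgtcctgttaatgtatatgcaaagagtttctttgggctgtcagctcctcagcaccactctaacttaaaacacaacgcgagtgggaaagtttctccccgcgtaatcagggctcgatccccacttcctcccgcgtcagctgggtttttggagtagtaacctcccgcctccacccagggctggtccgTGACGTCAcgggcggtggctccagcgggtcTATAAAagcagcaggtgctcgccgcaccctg
Egfr: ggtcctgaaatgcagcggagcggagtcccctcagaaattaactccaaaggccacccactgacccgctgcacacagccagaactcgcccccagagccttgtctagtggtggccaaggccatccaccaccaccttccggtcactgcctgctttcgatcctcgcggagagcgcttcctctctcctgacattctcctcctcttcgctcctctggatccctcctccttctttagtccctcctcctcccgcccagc

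TGACGTCA began 51 bases before the inner start of Errfi1 and 61 bases before the start of Areg, with TATAAA at 28 and 31 bases. The window of the other Errfi1 start (chr4:150853546-150853795) held neither. Of the 2 Errfi1 windows, the one with TGACGTCA was printed. The Egfr window held neither. On both strands, TGACGTCA was in 1.55% and TATAAA in 12.4% of all 32851 windows of this length. TGANTCA, the AP-1 letters, was in 6.75% of all windows and in none of the 6 windows of these genes. None of these motifs can overlap another. Such letters are a description of the window and do not show that a factor binds there.

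The first comparison asked which side of the family each fraction carried in vehicle cultures. Erbb3, Areg, Tgfa and Erbb2 were higher in the Epcam fraction, and Egfr, Ereg, Errfi1 and Nrg1 in the CCL206 fraction. This made 8 of 9 genes past an adjusted p of 0.05 (edgeR's quasi-likelihood test with the mouse as a block, Benjamini-Hochberg over 11749 genes), 4 in each direction. The same test called 71.4% of all genes tested, 35.6% higher and 35.8% lower in the Epcam fraction, so that being called at all set these genes apart little. The CPM ranges of the fractions did not overlap for 7 of the 9, beside 66% of all genes. Their median absolute log2 fold change was 1.36, and that of all genes tested was 0.64.

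**Figure D1:**
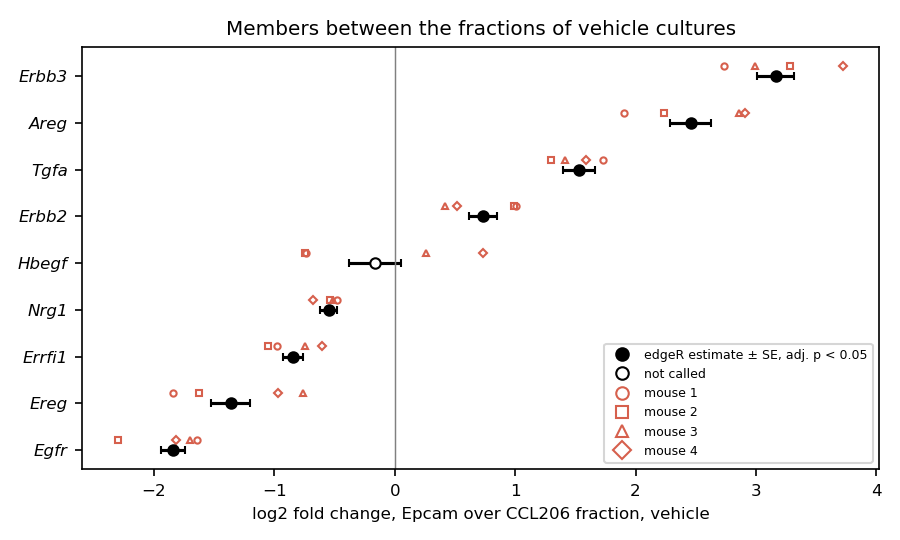
Log2 fold change of each gene between the Epcam and CCL206 fractions of vehicle cultures (x axis), with edgeR's estimate and SE in black and the difference within each mouse's culture in red (log2 CPM). Erbb3 at 3.17 and Egfr at -1.84 mark the ends of the range, and Hbegf is the gene whose mice fall on both sides of 0.

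Among the receptors, Erbb3 gave 122, 123, 105 and 94.6 CPM in the Epcam fraction of mice 1 to 4 and 18.1, 12.5, 13.0 and 6.93 CPM in the CCL206 fraction. The groups were far apart, and Erbb3 was 8.97-fold higher in the Epcam fraction (log2 fold change 3.17, SE 0.15, adjusted p = 2.04e-08). Its level in the CCL206 fraction, 11.2% ± 3.21 of that in the Epcam fraction, stands beside 3.97% ± 1.14 for Epcam, 6.65% ± 2.5 for the median gene of a 6-gene epithelial list, 10.3% ± 4.25 for Cdh1 and 22.7% ± 8.28 for the median AT2 gene. The part of epithelial cells left in the CCL206 fraction in this level was not tested.

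Egfr had the opposite pattern. It gave 74.8, 48.6, 67.5 and 62.8 CPM in the Epcam fraction against 234, 239, 220 and 221 CPM in the CCL206 fraction. The CCL206 libraries were close to each other and all above the Epcam libraries, with a 3.59-fold difference (log2 fold change -1.84, SE 0.10, adjusted p = 4.76e-08). The Epcam level was 27.8% ± 5.26 of the CCL206 level, beside the 21.5% ± 4.35 of the median fibroblast gene, so that the part of the Egfr signal in the Epcam fraction that comes from fibroblasts was not tested. Erbb2, the shared partner, differed least of the receptors, at 99.2, 89.7, 87.4 and 95.4 CPM against 49.2, 45.0, 65.3 and 66.6 CPM. It was 1.66-fold higher in the Epcam fraction (log2 fold change 0.73, SE 0.11, adjusted p = 0.000162) and the groups did not overlap.

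The ligands divided between the fractions. Areg gave 109, 99.1, 81.3 and 78.4 CPM in the Epcam fraction and 28.7, 20.8, 11.0 and 10.2 CPM in the CCL206 fraction. It was 5.49-fold higher in the Epcam fraction (log2 fold change 2.46, SE 0.17, adjusted p = 2.61e-07), and in both fractions mice 1 and 2 had the higher levels. Its CCL206 level was 18.5% ± 6.46 of the Epcam level, beside 22.7% ± 8.28 for the median AT2 gene. Tgfa gave 49.6, 38.9, 41.0 and 33.2 CPM against 14.8, 15.7, 15.3 and 10.9 CPM, a 2.88-fold difference in the same direction (log2 fold change 1.53, SE 0.13, adjusted p = 1.44e-06). Btc, a further EGFR and ERBB4 ligand, was also higher in the Epcam fraction, at a mean of 20.04 ± 2.83 against 10.4 ± 2.25 CPM (SD, n = 4, log2 fold change 0.96, SE 0.21, adjusted p = 0.00148).

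Ereg was higher in the CCL206 fraction, by 2.57-fold (log2 fold change -1.36, SE 0.16, adjusted p = 2.01e-05). Its CCL206 libraries fell into 246 and 245 CPM in mice 1 and 2 and 68.1 and 65.2 CPM in mice 3 and 4, and the Epcam libraries of the same mice gave 68.4, 79.1, 40.0 and 33.2 CPM. The groups therefore overlapped across mice, while within each mouse the CCL206 library was the higher one. The genes of the 3 ligands Ereg (chr5:91074617-91093649), Areg (chr5:91139599-91148432) and Btc (chr5:91357261-91402994) lie in this order on chromosome 5 in GRCm38.p6. Ereg differed between the fractions in the direction opposite to Areg and Btc.

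Nrg1, the ERBB3 ligand, gave 115, 120, 102 and 88.1 CPM in the Epcam fraction and 160, 174, 145 and 141 CPM in the CCL206 fraction. The difference of 1.46-fold was small and regular, in the same direction in 4 of 4 mice (log2 fold change -0.55, SE 0.07, adjusted p = 3.73e-05). Errfi1, the receptor's inhibitor, gave 269, 243, 172 and 206 CPM against 530, 505, 289 and 314 CPM. It was 1.8-fold higher in the CCL206 fraction (log2 fold change -0.85, SE 0.08, adjusted p = 4.75e-06), without overlap, and the Epcam fraction held 56.1% ± 8.1 of the CCL206 level.

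Hbegf was the gene with no called difference between the fractions (log2 fold change -0.17, SE 0.21, adjusted p = 0.505). It gave 119, 110, 64.1 and 95.7 CPM in the Epcam fraction and 199, 185, 53.4 and 57.6 CPM in the CCL206 fraction. The CCL206 library was the higher one in mice 1 and 2 and the lower one in mice 3 and 4.

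Divided by the length of the canonical transcript, which makes genes comparable within a fraction (CPM per kilobase, mean ± SD, n = 4, vehicle), Areg had the highest level in the Epcam fraction at 75.1 ± 11.8, followed by Errfi1 at 43.6 ± 8.32 and Hbegf at 40.8 ± 10.1. Among the receptors there, Erbb3 (18.4 ± 2.29) and Erbb2 (18.2 ± 1.05) differed by less than their spread, and Egfr was at 6.2 ± 1.08. In the CCL206 fraction Errfi1 led at 80.1 ± 24.6, then Hbegf at 51.9 ± 33.1 and Ereg at 35.1 ± 23.2, whose spreads overlapped. Its leading receptor was Egfr at 22.4 ± 0.927, above Erbb2 at 11.1 ± 2.16 and Erbb3 at 2.09 ± 0.756. These levels rest on 1 transcript per gene, and the isoforms in use were not known.

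**Figure D2:**
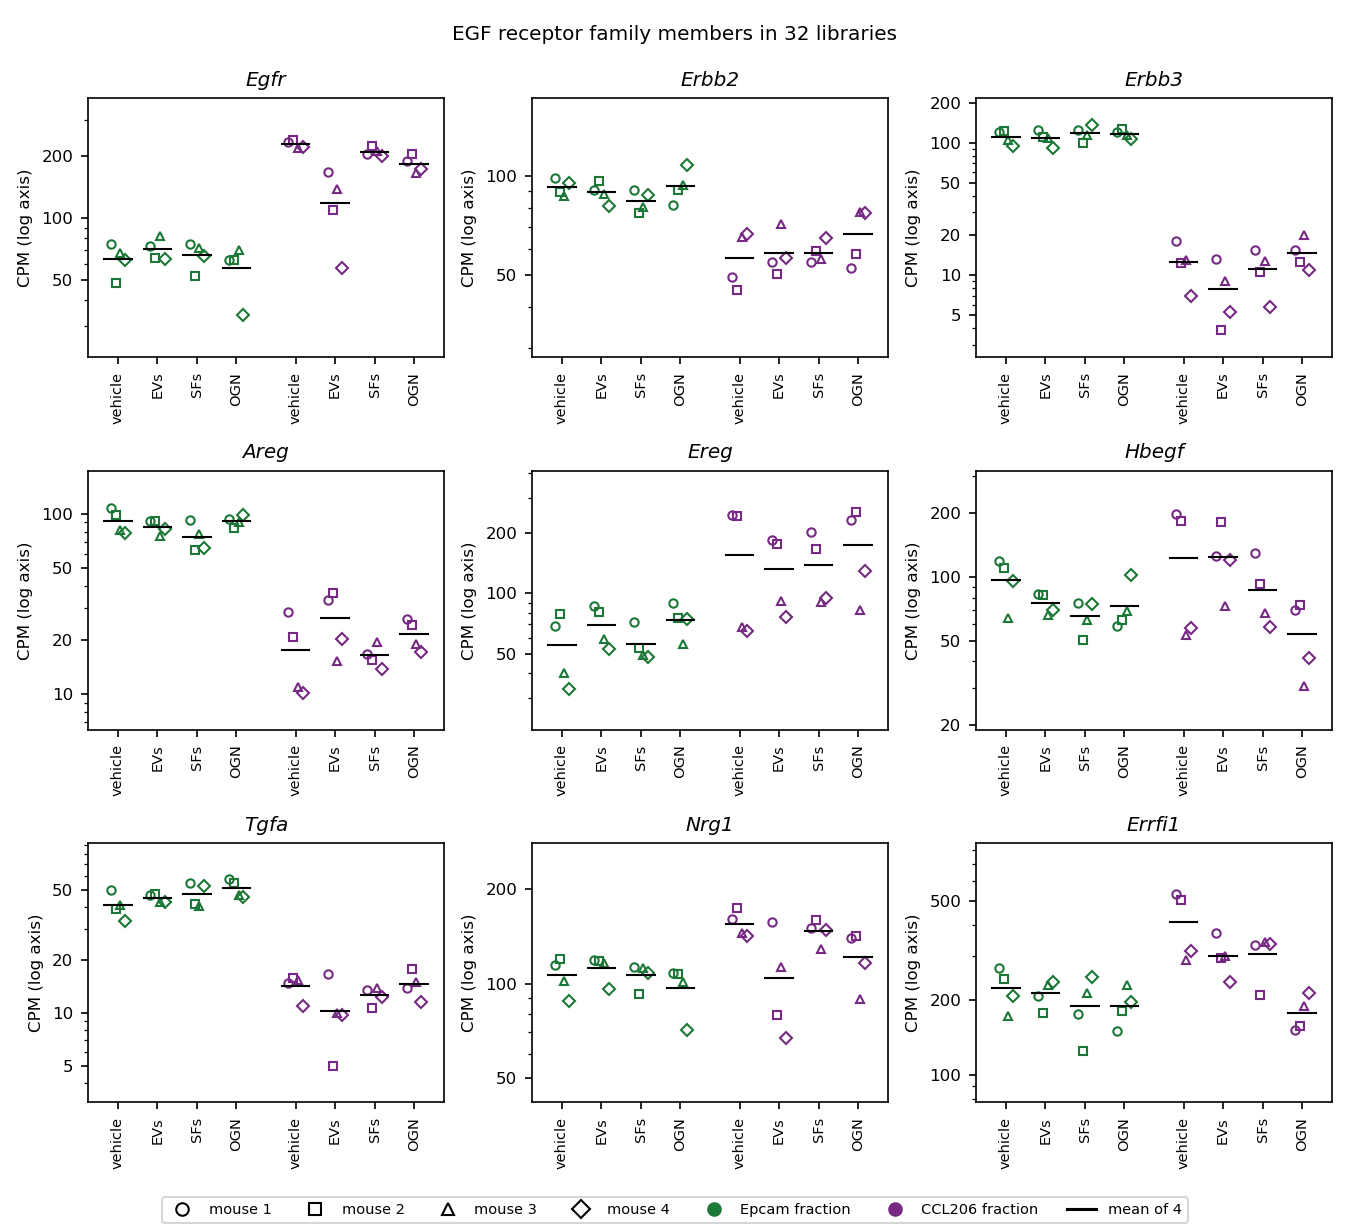
CPM (log axis) of the 9 genes in all 32 libraries, by fraction (green, Epcam; purple, CCL206) and treatment (x axis), with a symbol for each mouse and a line at the mean of 4 libraries. Erbb3, Areg and Tgfa stay apart between the fractions under every treatment, and the low OGN groups of Hbegf and Errfi1 and the low EV group of Egfr stand in the CCL206 fraction.

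Over all treatments the order of the 8 group means followed the fraction for most of these genes. The ranges of the 16 Epcam and the 16 CCL206 libraries did not overlap for Erbb3 (91.7 to 135 against 3.86 to 20.1 CPM), Areg (62.9 to 109 against 10.2 to 36.4 CPM) and Tgfa (33.2 to 57.1 against 4.97 to 17.7 CPM). In the order of the 8 means, neighbouring groups overlapped for all 9 genes apart from the step between the fractions in Erbb3, Areg and Tgfa. This overlap is across mice and leaves the pairing by mouse aside. Egfr ran in the order vehicle, SFs, OGN and EVs in the CCL206 fraction, with means of 229, 211, 184 and 119 CPM, and all 4 Epcam means lay lower, between 57.4 and 70.9 CPM.

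The next comparison asked what OGN changed in the fibroblasts. Hbegf and Errfi1 fell in the CCL206 fraction, and none of the other 7 genes passed the test. The count of 2 of 9 genes stands beside 4.56% of all 11689 genes called with OGN in this fraction, of which 1.86% of genes were lower.

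Errfi1 gave 530, 505, 289 and 314 CPM with vehicle and 151, 157, 188 and 214 CPM with OGN. All 4 OGN libraries were below all 4 vehicle libraries, as was the case, in either direction, for 16.4% of all genes. Errfi1 was 2.27-fold lower (log2 fold change -1.19, SE 0.21, adjusted p = 0.00235). The log2 difference was -1.81 and -1.69 in mice 1 and 2, where vehicle was high, and -0.62 and -0.55 in mice 3 and 4. Hbegf, an EGFR ligand that also binds heparan sulfate, gave 199, 185, 53.4 and 57.6 CPM with vehicle and 69.8, 73.6, 30.5 and 41.6 CPM with OGN. It was lower in 4 of 4 mice and 2.11-fold lower in all (log2 fold change -1.08, SE 0.22, adjusted p = 0.00609), while the groups overlapped because vehicle cultures of mice 3 and 4 were already low. Its call needs the pairing by mouse, as the adjusted p was 0.127 without the mouse in the model. It also needs mouse 2, without which the adjusted p was 0.0912 with the pairing kept.

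The other ligands and the receptors did not pass the test with OGN in the CCL206 fraction. Egfr gave 189, 206, 166 and 174 CPM, all below the vehicle libraries of 220 to 239 CPM, and was lower in 4 of 4 mice (log2 fold change -0.32, SE 0.18, adjusted p = 0.433). Nrg1 gave 139, 142, 89.3 and 117 CPM against 160, 174, 145 and 141 CPM (log2 fold change -0.36, SE 0.17, adjusted p = 0.332), also lower in 4 of 4 mice. In a fit without the EV-treated libraries the adjusted p was 0.000879 for Egfr and 0.002 for Nrg1, with log2 fold changes of -0.32 and -0.37. Erbb2 (0.23), Erbb3 (0.28), Areg (0.37), Ereg (0.29) and Tgfa (0.06) had log2 fold changes above 0 and adjusted p-values from 0.347 to 0.946.

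In the Epcam fraction OGN changed none of the 9 genes past the threshold, beside 2.7% of all 11716 genes tested, 1.48% higher and 1.22% lower. The vehicle and OGN libraries overlapped for all 9, while 6.06% of all genes had no overlap. At an unadjusted p under 0.05 there were 3, namely Ereg, Hbegf and Tgfa, beside 1540 of all 11716 genes. DESeq2 called 1, Ereg, beside 465 of all genes. Ereg gave 68.4, 79.1, 40.0 and 33.2 CPM with vehicle and 89.5, 75.4, 55.6 and 74.8 CPM with OGN, higher in 3 of 4 mice (log2 fold change 0.45, SE 0.14, adjusted p = 0.0812, and 0.0345 with DESeq2). The sum of the 2 macrophage markers in the Epcam fraction ran from 298 to 402 CPM with OGN and from 185 to 253 CPM with vehicle, and its part in the Ereg values was not tested. Tgfa was higher in 4 of 4 mice by a log2 fold change of 0.31 (SE 0.11, adjusted p = 0.196). Hbegf was lower in mice 1 and 2, with 58.8 and 62.9 against 119 and 110 CPM, and about level in mice 3 and 4, with 69.4 and 103 against 64.1 and 95.7 CPM (log2 fold change -0.40, SE 0.16, adjusted p = 0.238). Errfi1 had a log2 fold change of -0.26 (SE 0.15, adjusted p = 0.487).

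Whether OGN acted differently on the 2 fractions was tested as an interaction over all 32 libraries, and none of the 9 genes passed, beside 0.551% of 11805 genes, 0.407% with a higher and 0.144% with a lower response in the CCL206 fraction. The difference in response, CCL206 minus Epcam, was -0.93 for Errfi1 (SE 0.29, adjusted p = 0.212) and -0.68 for Hbegf (SE 0.29, adjusted p = 0.57), with both below 0 in 4 of 4 mice. These 2 were also the genes of the 9 with an unadjusted p under 0.05, beside 813 of all 11805 genes, and DESeq2 called none of the 9. By mouse, the difference was -0.96, -1.25, -1.03 and -0.47 for Errfi1 and -0.50, -0.52, -0.92 and -0.57 for Hbegf. The model held a mouse term for each fraction and did not pair the 2 fractions of a culture. By this test the fall of Errfi1 and Hbegf in the CCL206 fraction is not shown to be particular to it, and a test paired by culture was not run.

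**Figure D3:**
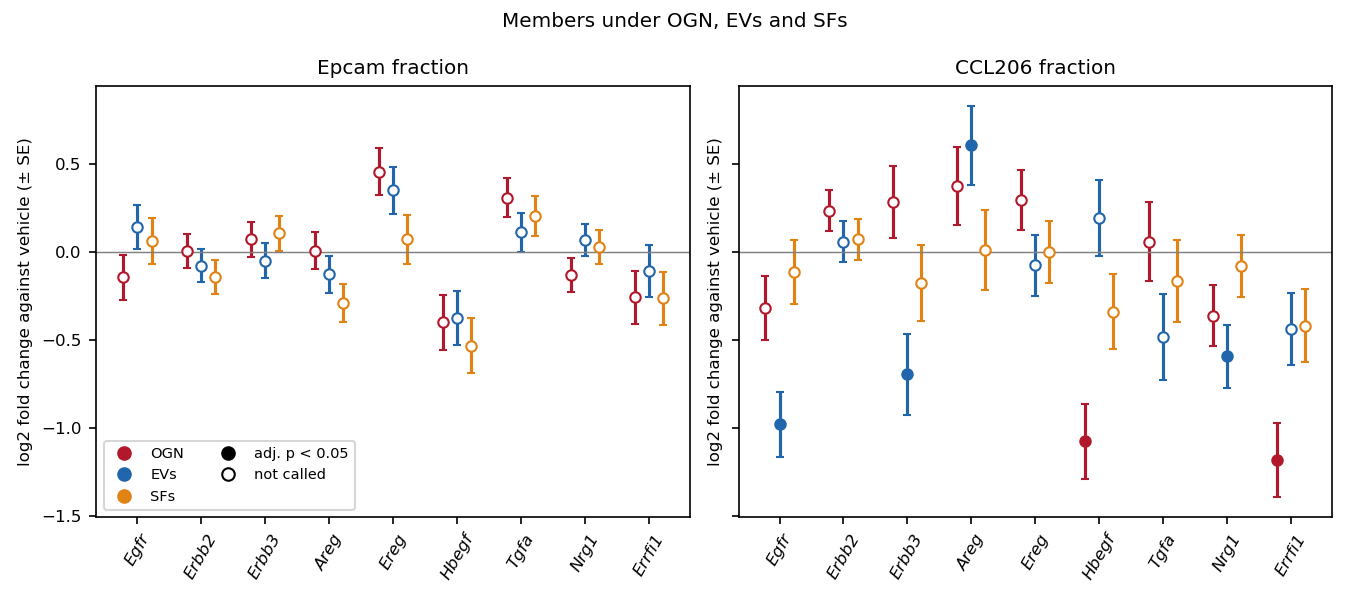
Log2 fold change against vehicle (y axis, with SE) of the 9 genes under OGN (red), EVs (blue) and SFs (orange), in the Epcam fraction (left) and the CCL206 fraction (right), with filled points where the adjusted p was under 0.05. No point is filled on the left, and on the right Hbegf and Errfi1 are filled for OGN and Egfr, Erbb3, Areg and Nrg1 for EVs.

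EVs were the treatment with the most called genes in the CCL206 fraction, where Egfr, Erbb3 and Nrg1 fell and Areg rose. These 4 of 9 genes stand beside 36% of all 11689 genes, 19.8% higher and 16.2% lower. The EV-treated CCL206 libraries also carried a trend with transcript length. Over 11621 genes the log2 difference from the mean of the 4 vehicle libraries had a Spearman rho with length of -0.287, -0.583, -0.364 and -0.623 in mice 1 to 4. Each rho is a description over genes of 1 EV-treated library. Egfr, Nrg1 and Erbb3 have long canonical transcripts of 10221, 6879 and 6031 nt, at percentiles 97.4, 88.6 and 83.3 of all genes, and that of Areg has 1222 nt, at percentile 8.72.

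Egfr gave 168, 110, 139 and 57.2 CPM with EVs against 234, 239, 220 and 221 CPM with vehicle. The groups did not overlap, as for 23.5% of all genes, and Egfr was 1.97-fold lower (log2 fold change -0.98, SE 0.19, adjusted p = 0.00392). The fall was larger in mice 2 and 4, the pair with the stronger length trend. In 2 further fits it was -0.57 (adjusted p = 0.000556) without the EV-treated CCL206 libraries of mice 2 and 4 and -0.40 (adjusted p = 0.00501) with the length trend taken out of every library, so that the direction and the call held at a smaller size. Without mouse 2 as a whole the adjusted p was 0.0653.

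The other 3 calls did not hold in these fits. Nrg1 gave 157, 79.2, 113 and 67.3 CPM with EVs against 160, 174, 145 and 141 CPM (log2 fold change -0.59, SE 0.18, adjusted p = 0.0201), with mouse 1 unmoved. Erbb3 gave 13.3, 3.86, 9.14 and 5.3 CPM against 18.1, 12.5, 13.0 and 6.93 CPM (log2 fold change -0.70, SE 0.23, adjusted p = 0.0297). Areg gave 33.3, 36.4, 15.4 and 20.4 CPM against 28.7, 20.8, 11.0 and 10.2 CPM, higher in 4 of 4 mice and overlapping with vehicle (log2 fold change 0.60, SE 0.23, adjusted p = 0.049). With the length trend taken out, or without the libraries of mice 2 and 4, the count of called genes was 1, Egfr. The summed AT2 list in the CCL206 fraction ran from 2820 to 3950 CPM with EVs (median 3450). With vehicle it ran from 1876 to 4841 CPM (median 3111). The summed epithelial list ran from 295 to 415 CPM with EVs (median 377) and from 171 to 451 CPM with vehicle (median 266). The part of epithelial cells in the Areg values was not tested.

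**Figure D4:**
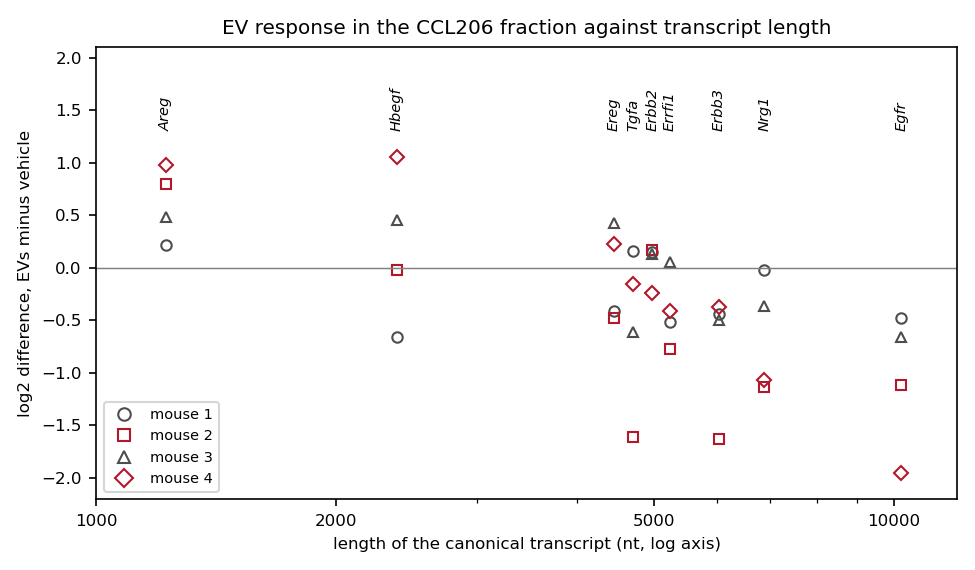
Log2 difference in CPM between EV and vehicle cultures in the CCL206 fraction (y axis), by mouse, against the length of each gene's canonical transcript (x axis, log scale), with mice 2 and 4 in red and Erbb2 and Errfi1 drawn slightly apart because their lengths nearly coincide. Areg, the shortest at 1222 nt, lies above 0 in all mice and Egfr, the longest at 10221 nt, below 0 in all mice.

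In the Epcam fraction none of the 9 genes passed with EVs, beside 0.888% of all genes, 0.538% higher and 0.35% lower, and for all 9 the libraries overlapped with vehicle, beside 4.74% of genes without overlap. Ereg (log2 fold change 0.35, SE 0.13, adjusted p = 0.327) and Hbegf (-0.38, SE 0.15, adjusted p = 0.36) had an unadjusted p under 0.05. So did 1195 of all 11716 genes, and DESeq2 called none of the 9. The sum of the fibroblast list in that fraction ran from 3162 to 3745 CPM with EVs and from 2239 to 3111 CPM with vehicle, and its part in these values was not tested. The interaction of EVs and fraction called the same 4 genes as the CCL206 comparison, with which it shares those libraries, beside 23.8% of all genes, 11.8% higher and 12% lower in the CCL206 fraction. In fits added after the values were seen, it called none without the EV-treated CCL206 libraries of mice 2 and 4, and Egfr alone with the length trend taken out.

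SFs called none of the 9 genes in either fraction, beside 0.23% of genes in the Epcam fraction, 0.154% higher and 0.0768% lower, and 0.0599% in the CCL206 fraction, all of them higher. All 9 genes overlapped with vehicle in both, where 3.53% and 7.02% of all genes did not. At an unadjusted p under 0.05 there were 2 in the Epcam fraction, Hbegf (log2 fold change -0.53, SE 0.16, adjusted p = 0.326) and Areg (-0.29, SE 0.11, adjusted p = 0.485), both lower in 4 of 4 mice, and 0 in the CCL206 fraction. Over all genes, 913 of 11716 in the Epcam fraction and 621 of 11689 in the CCL206 fraction had such a p. The interaction of SFs with the fraction also called none, beside 0% of all genes. At an unadjusted p under 0.05 it had 0 of the 9, beside 590 of all 11805 genes. DESeq2 called none of the 9 genes in these 3 comparisons. In the CCL206 fraction Errfi1 gave 332, 209, 341 and 336 CPM with SFs against 530, 505, 289 and 314 CPM (log2 fold change -0.42, SE 0.21, adjusted p = 0.966), lower in mice 1 and 2 and slightly higher in mice 3 and 4.

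Hbegf in the Epcam fraction had a negative log2 fold change under all 3 treatments, and these values share 1 set of vehicle libraries.

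The wider pathway was read from a list of 76 further genes, of which 70 were in the table. This list too was chosen with earlier results of these data known, so that its counts of called genes are a description. With OGN in the CCL206 fraction 10 of 70 passed, 4 higher and 6 lower, beside 4.56% of all genes, 2.7% higher and 1.86% lower. The list's median log2 fold change was 0.03 and that of all genes -0.01. By role, 4 of 14 ERK-responsive transcripts were lower and none higher, with a median of -0.34. Of 21 genes of receptor turnover and feedback, 2 were lower and 1 higher. Of 7 genes for ligand release 2 were higher, and of 27 genes of the adaptor, RAS, ERK and PI3K chain 1 was higher.

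Among the lower genes, Myc, a transcription factor that growth factors induce, fell from 63.6 ± 22.7 to 36.6 ± 9.86 CPM (SD, n = 4, log2 fold change -0.78, SE 0.12, adjusted p = 0.000531). Spry2, a feedback inhibitor of receptor tyrosine kinase signalling, fell from 61.2 ± 11.6 to 32.7 ± 2.3 CPM (-0.89, SE 0.15, adjusted p = 0.0015), with no overlap. Egr2, an immediate early transcription factor, fell from 32.1 ± 22.1 to 10.6 ± 3.64 CPM (-1.42, SE 0.26, adjusted p = 0.00322). Each of the 3 was lower in 4 of 4 mice. The other lower genes of the list were Spry4, Egr1 and Ccnd1, named here after their values were seen, with log2 fold changes of -1.02, -1.13 and -0.45.

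Among the higher genes, Map2k1 (MEK1, the kinase that activates ERK) gave 196, 192, 196 and 224 CPM with OGN against 125, 125, 132 and 122 CPM with vehicle. The OGN libraries were well above all vehicle libraries (log2 fold change 0.68, SE 0.09, adjusted p = 0.000217). Rhbdf2 (iRhom2), which carries the ligand-releasing protease ADAM17 to the cell surface, gave 52.8, 50.2, 61.0 and 55.7 against 35.8, 31.2, 30.2 and 30.9 CPM (0.77, SE 0.11, adjusted p = 0.000416). Adam17 itself, also named after its values were seen, had a log2 fold change of 0.38 (SE 0.10, adjusted p = 0.0461). Lrig1, a membrane protein that promotes the breakdown of EGFR, had a log2 fold change of 0.34 (SE 0.09, adjusted p = 0.0418).

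**Figure D5:**
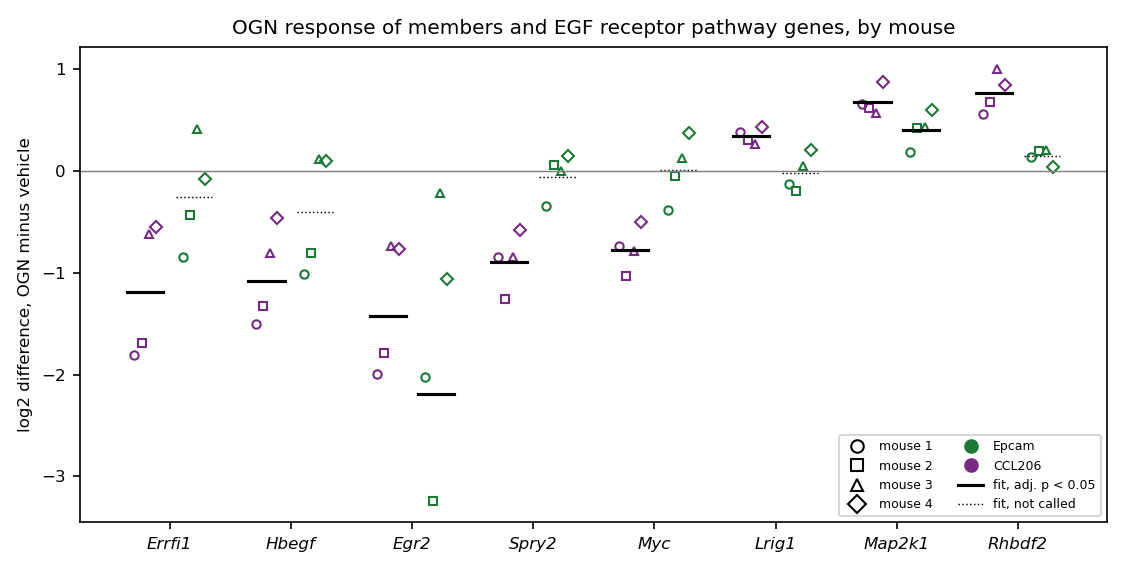
Log2 difference in CPM between OGN and vehicle cultures of each mouse (y axis) for Errfi1, Hbegf and 6 pathway genes (x axis), in the CCL206 fraction (purple) and the Epcam fraction (green), with edgeR's estimate as a thick line where the adjusted p was under 0.05 and dotted where it was not. In the CCL206 fraction Errfi1, Hbegf, Egr2, Spry2 and Myc lie below 0 and Lrig1, Map2k1 and Rhbdf2 above 0 in all 4 mice.

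In the Epcam fraction 3 of the 70 passed with OGN (4.29%), beside 2.7% of all genes. Map2k1 rose there too, by a log2 fold change of 0.40 (SE 0.09, adjusted p = 0.0109), while Egr1 fell from 107 ± 46.8 to 44.3 ± 13.6 CPM (-1.24, SE 0.15, adjusted p = 1.81e-05) and Egr2 also fell (-2.19, SE 0.54, adjusted p = 0.0248). Egr2 rested on few reads there, 135, 23, 4 and 3 counts with vehicle and 10, 3, 9 and 1 with OGN in libraries of unequal depth, so that its fold is imprecise. Spry2 and Myc gave about equal means there, 51.6 and 50.4 CPM for Spry2 and 41.3 and 42.0 CPM for Myc with vehicle and OGN. For these 2 genes the interaction itself passed the test, with differences in response of -0.85 (SE 0.20, adjusted p = 0.0381) for Spry2 and -0.80 (SE 0.17, adjusted p = 0.0258) for Myc. They were the only 2 of the 70 that did (2.86%), beside 0.551% of all genes.

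With EVs none of the 70 passed in the Epcam fraction, beside 0.888% of all genes. In the CCL206 fraction 22 of the 70 passed, 6 higher and 16 lower, beside 36% of all genes, 19.8% higher and 16.2% lower. The smallest adjusted p-values were those of Map2k2 (0.85), Hras (0.93) and Phlda1 (0.53) among the higher genes and of Etv5 (-0.59), Braf (-1.03) and Sos1 (-0.79) among the lower ones, given as log2 fold changes. The EV-treated CCL206 libraries carried the trend with transcript length given above. Its part in these 22 calls was not tested, since the fit with the trend taken out was read for the 9 genes alone. SFs called none of the 70 in either fraction, beside 0.23% of all genes in the Epcam and 0.0599% in the CCL206 fraction. Between the fractions of vehicle cultures 47 of 70 passed, beside 71.4% of all genes. The epithelial ubiquitin ligase Cblc was 28.4 ± 5.78 against 1.48 ± 0.382 CPM (log2 fold change 4.22, SE 0.23), and Etv5 (0.95) and Pik3cb (1.45) were also higher in the Epcam fraction. Eps8, a receptor substrate that acts on actin, was 212 ± 22.7 against 731 ± 33.5 CPM (-1.79, SE 0.07), and Pik3r1 (-1.44) and Egr1 (-1.94) were also higher in the CCL206 fraction. Of the 14 ERK-responsive transcripts, 9 were higher in the CCL206 fraction and 1 in the Epcam fraction, beside 35.8% and 35.6% of all genes.

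The genes whose levels ran most like those of Errfi1 over the 16 CCL206 libraries, after each mouse's mean was taken out, were Sgo1 (Pearson r = 0.962), Egr3 (0.955) and Midn (0.924). For Hbegf they were Ccn1 (0.934), Myc (0.931) and Ddit3 (0.924). Errfi1 and Hbegf themselves had r = 0.752 there, and Egfr and Nrg1 had r = 0.904. These points share libraries, treatments and depth, the latter pair shares long transcripts, and the values are a description.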

How the data were processed

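RNA of 32 libraries (2 fractions, 4 treatments, 4 mice) was sequenced on a NovaSeq instrument. The deposited values are raw gene counts made by the authors' sequencing service after trimming with Trimmomatic 0.30, and the submitters' processing notes also name DESeq2 1.34.0. The aligner, counter and strand setting are not given in the sources used here, so that reads of overlapping and antisense genes could not be told apart, and the build is GRCm39 in the labels and GRCm38.p6 in the methods. Each of the 11818 genes had at least 1 count in every library, and the filter behind this is not described there.

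Groups, mouse and fraction came from the sample titles. The members and gene lists were chosen with earlier results of these data known. Counts were filtered with filterByExpr, scaled by TMM and tested with edgeR 4.0.16 (quasi-likelihood test, R 4.3.3), with the mouse as a block and Benjamini-Hochberg adjustment over all genes tested (threshold 0.05). The block comes from the labels: same-numbered libraries are from one mouse, and their deviations from the group means correlated at 0.0872 to 0.224 on average against -0.07 to -0.0296 for other pairs. The lowest same-mouse value was -0.0547, between vehicle and EVs in the CCL206 fraction. Taking out group means pushes other pairs below 0 where same-mouse pairs are above it, so the 2 averages are not separate results. The 16 libraries of a fraction entered each treatment test, 8 vehicle libraries the fraction test, and all 32 the interactions. The interactions held a mouse term for each fraction and no term for the culture that both fractions shared. p-values measure the spread between cultures, 4 per group, whose fibroblasts are one line. In a treatment test that spread is estimated over all 4 treatments of the fraction. A p-value for OGN therefore also carries the spread of the EV- and SF-treated libraries. No 2 of 48 replicate pairs held identical counts. Plotted log2 CPM used a prior count of 2. From the pathway list the text names, in each comparison, up to 3 genes per direction with the smallest adjusted p under 0.05, and other names are marked. Transcript lengths, of the canonical GENCODE transcript, were found for 98.3% of genes. The fit was tested on simulated data with the same dispersion for every gene and no length trend between treatments. Those data therefore do not test it for the length trend of the EV-treated libraries. Alternatives were no block, DESeq2 1.42.0, other size factors, other filters, fewer libraries and a length correction.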

Additional observations from a re-analysis of the deposited data

Results flagged for a closer look

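In 2 of 72 groups of 4 libraries, 1 library stood apart by Dixon's test, which chance gives in about 1 of 20 groups. Errfi1 was at 209 CPM in the SF-treated CCL206 library of mouse 2, where the nearest of the others was at 332 CPM. Nrg1 was at 96.1 CPM in the EV-treated Epcam library of mouse 4, with the nearest at 116 CPM.

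The response to EVs differed between the fractions by the interaction test for 4 genes, given as the log2 response in the CCL206 fraction minus that in the Epcam fraction. The difference was -1.14 for Egfr (adjusted p = 0.00542), -0.68 for Nrg1 (adjusted p = 0.0242), -0.66 for Erbb3 (adjusted p = 0.0383) and 0.69 for Areg (adjusted p = 0.0412). All 4 had the same sign in 4 of 4 mice. In fits added after the values were seen, none of these differences was called without the EV-treated CCL206 libraries of mice 2 and 4, and Egfr alone was called with the length trend taken out.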

How the results depend on the processing

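Of the 9 genes, the number called with OGN in the CCL206 fraction was 2, and became 1 without the mouse block, 1 to 2 without 1 mouse (1 without mouse 2), 4 with the 8 libraries compared alone and 4 without the EV-treated libraries, the latter 2 adding Egfr and Nrg1. With OGN in the Epcam fraction it was 0, and became 1 with DESeq2 and 0 to 1 without 1 mouse (Ereg without mouse 2, Hbegf without mouse 4). With EVs in the CCL206 fraction it was 4, and became 2 without the block, 0 to 4 without 1 mouse (0 without mouse 2, 1 without mouse 4), 1 with the 8 libraries alone, 1 without the EV-treated libraries of mice 2 and 4 and 1 with the length trend taken out. Its interaction with the fraction went from 4 to 1 without the block, 0 to 4 without 1 mouse, 0 without those libraries and 1 with the length trend taken out. The sign of the Hbegf difference between fractions, -0.17, turned to 0.0793 without mouse 1 and 0.0519 without mouse 2 and ranged from -0.44 to 0.0793 when 1 mouse was left out, called without mouse 4. The count between the fractions was 8 or 9 in every fit, and the EV count in the Epcam fraction, the SF counts and the OGN and SF interactions stayed at 0. The replicate block changed no other count. Errfi1 with OGN in the CCL206 fraction passed in all alternatives (adjusted p from 3.7e-06 to 0.0415). Of 945 alternative values over 90 pairs of gene and comparison, 33 turned sign, none of them called. The cause of these changes was not tested. With OGN in the Epcam fraction the number of all genes called also changed between fits. It was 316 of 11716 in the main fit, 465 with DESeq2, 223 of 11743 without mouse 2 and 268 of 11711 without mouse 4. For the other comparisons such totals are not set beside the counts here. Depth limits Erbb3 and Tgfa most, the genes with the lowest levels in the CCL206 fraction.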

Other observations

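In the CCL206 fraction of vehicle cultures, Ereg, Hbegf, Errfi1 and Areg were each higher in mice 1 and 2 than in mice 3 and 4, although the fibroblasts were one line. Ereg was at 246 and 245 CPM against 68.1 and 65.2 CPM, and Hbegf at 199 and 185 CPM against 53.4 and 57.6 CPM. Egfr and Nrg1 were higher in the same mice by less, with 234 and 239 against 220 and 221 CPM for Egfr and 160 and 174 against 145 and 141 CPM for Nrg1. In the Epcam fraction of vehicle cultures Ereg, Hbegf, Errfi1 and Areg were also higher in mice 1 and 2. With SFs in the CCL206 fraction these 4 genes were lower than vehicle in mice 1 and 2 and higher in mice 3 and 4. The log2 differences were -0.28, -0.55, 0.41 and 0.53 for Ereg and -0.76, -0.41, 0.81 and 0.44 for Areg. With EVs, Ereg and Hbegf had the same signs by mouse, while Errfi1 was also lower in mouse 4 and Areg was higher in all mice. These differences, and those with OGN, subtract the same vehicle libraries. The labels give no batch for the mice, and the pattern was seen in the values and was not tested.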
